A study of Mus musculus with 20 samples.

Results

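The constant regions of antibodies and the J chain were followed in RNA from 5 organs of wild-type (WT) and Nsun6 knockout (KO) mice. The members were the rows of the count table that carry the symbols Ighm, Ighd, Igha, Ighg1, Ighg2b, Ighg2c, Ighg3, Igkc, Iglc1, and Jchain. All 10 symbols were found once, among 55401 genes in all. The first 7 encode the constant part of the heavy chain and name the antibody class: Ighm for IgM, Ighd for IgD, Igha for IgA, and the Ighg genes for the IgG subclasses. Igkc and Iglc1 encode the constant part of the kappa light chain and of 1 lambda light chain. Jchain encodes the joining chain of antibodies made of several units.

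An antibody is built from identical heavy chains and identical light chains. A naive B cell carries IgM and IgD on its surface, made from 1 long transcript by alternative splicing. After activation, class switch recombination joins the same variable region to another constant gene downstream, and plasma cells then secrete the antibody in large amounts. Plasma cells of the gut mainly make IgA with the J chain, and the polymeric immunoglobulin receptor carries it across the epithelium. The spleen is a large store of naive B cells and also holds plasma cells that make IgM and IgG.

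The study sequenced mRNA from heart, kidney, liver, small intestine, and spleen, with 2 WT and 2 KO libraries in each organ and 20 libraries in all. KO mice lacked exons 3 and 4 of Nsun6, an RNA methyltransferase, in the whole body after CRISPR/Cas9 editing on a C57BL/6J background. According to the methods, the mice were females of 8 weeks, and homozygous animals came from heterozygous matings. No immunization is given for the mice of these libraries. The labels number the libraries of each group but do not tie them to animals, so p-values measure the spread between these libraries. Libraries are named here by genotype and number, as WT1, WT2, KO1, and KO2. Gene counts of the liver and the heart were used for the comparison of organs, and the genotypes were compared in the spleen, small intestine, and kidney.

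Total counts on genes ran from 15897446 in heart KO1 to 44508197 in liver KO2, with a median of 28513950. In the order WT1, WT2, KO1, KO2, the spleen had 34687048, 25021003, 30041724, and 28636897 counts. The small intestine had 32121286, 28391003, 27240407, and 26414043 counts, and the kidney 25988075, 25327492, 25220170, and 24772312. Levels are given in TPM, in which counts are divided by the exon length of the gene and scaled to a common total per library. This length adds up the exons of all annotated forms of a gene. It was 2678 bases for Ighg2b and 1326 for Ighg2c, although the transcripts of their secreted forms have 1114 and 1111 bases. Levels, shares, and ratios that set different genes side by side carry this bias. Genotypes are compared in CPM, counts scaled to library size, after trimmed mean of M values (TMM) normalization, which sets the libraries of 1 organ on a common scale. Nsun6 did not separate the genotypes in the spleen, with 8.77, 6.59, 5.99, and 10.3 CPM, or in the small intestine, with 9.67, 6.09, 9.13, and 5.09 CPM. In the kidney it stood at 6.32 and 6.55 CPM in WT and at 4.38 and 3.71 CPM in KO. A gene count adds up all exons, so these values do not isolate the deleted ones.

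Lists of marker genes showed how libraries of 1 organ differed. In the small intestine, a list of 6 genes of the distal gut summed to 41613 TPM in WT1 and 40931 TPM in KO1. Most of the sum in these libraries was Fabp6, the bile acid carrier of the ileum. The same list summed to 6.69 TPM in WT2 and 9.13 TPM in KO2. A list of 6 genes of the proximal gut ran the other way, at 88.9, 22442, 751, and 30209 TPM, with most of it from Fabp1. Libraries numbered 1 and 2 thus carried markers of different stretches of the intestine, and each genotype had 1 of each kind. Both KO libraries of the small intestine also had more smooth muscle RNA than both WT libraries, with a sum of 275, 359.9, 2698, and 1159.7 TPM. In the spleen, WT2 carried RNA of hepatocytes at 7184 TPM, most of it Alb, against 18.4, 239.9, and 333 TPM in WT1, KO1, and KO2. Spleen results are given below without WT2 where that changes a call.

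IgM and IgA differ from IgG in the end of the secreted heavy chain, and the coding sequences of these ends are shown because those of IgM and IgA carry the site that the J chain binds. They lie on chromosome 12 of GRCm38 (mm10), on the minus strand, in the last coding exon of the secreted form, and are written 5′ to 3′ as the last 66 coding bases from the GENCODE annotation of this build. Capitals mark coding bases of the secreted form that the membrane form lacks. The stretches lie at chr12:113420870-113420935 for Ighm, chr12:113258771-113258836 for Igha, and chr12:113328979-113329044 for Ighg1.
Ighm: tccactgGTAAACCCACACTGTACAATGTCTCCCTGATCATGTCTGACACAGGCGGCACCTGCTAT
Igha: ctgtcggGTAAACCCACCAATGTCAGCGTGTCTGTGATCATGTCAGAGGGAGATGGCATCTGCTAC
Ighg1: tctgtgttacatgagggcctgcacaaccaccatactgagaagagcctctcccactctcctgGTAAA

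Ighm and Igha each had 59 coding bases that only the secreted form uses, whereas Ighg1 and the other 3 IgG genes had 5. In the ends shown these bases begin with GTAAA, and those that follow it in Ighm and Igha encode the tailpiece. The codon before the last is TGC, for cysteine, in Ighm and in Igha, followed by TAT and TAC, both for tyrosine. In Ighg1 the last codons are GGT and AAA, for glycine and lysine. The cysteine next to the end of the IgM and IgA tailpieces forms the bond with the J chain. Gene counts add up the secreted and membrane forms, so the values below do not tell one from the other. The IgG genes are also alike along their length: the secreted coding sequences of Ighg2b and Ighg2c were 85.7% identical, and the other IgG pairs 74.1% to 76.3%. Reads from shared stretches could have been left out or placed on the wrong subclass.

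The heavy chain genes sit in 1 cluster on the minus strand of chromosome 12, in the order of transcription Ighm (ENSMUSG00000076617, chr12:113418558-113422730), Ighd (ENSMUSG00000104213, chr12:113406604-113416324), Ighg3 (ENSMUSG00000076615, chr12:113356224-113361232), Ighg1 (ENSMUSG00000076614, chr12:113325240-113330523), Ighg2b (ENSMUSG00000076613, chr12:113302965-113307933), Ighg2c (ENSMUSG00000076612, chr12:113285325-113288932), and Igha (ENSMUSG00000095079, chr12:113254830-113260236). Igkc (ENSMUSG00000076609) lies at chr6:70726435-70726966 on the plus strand. Iglc1 (ENSMUSG00000105906, chr16:19061618-19062071) and Jchain (ENSMUSG00000067149, chr5:88519809-88527891) are on the minus strand. No member shares exon bases with another annotated gene.

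All 10 members had their highest median level in the spleen. Ighm had 5617, 5214, 5088, and 6281 TPM there, in the order WT1, WT2, KO1, KO2. It had 145, 12.1, 8.62, and 49.0 TPM in the small intestine, in the heart 20.9, 34.0, 17.1, and 31.4 TPM, in the kidney 16.1, 16.9, 12.6, and 15.0 TPM, and in the liver 12.7, 6.66, 6.60, and 9.16 TPM. The spleen lay above all other organs, the small intestine overlapped the heart, the heart lay above the kidney without overlap, and the kidney overlapped the liver. In bulk RNA, fewer B cells and less antibody RNA per cell cannot be told apart. Ighd, the IgD gene of naive B cells, followed with 1948, 1480.6, 1364, and 1081 TPM in the spleen and at most 119 TPM elsewhere, and its levels in the other 4 organs overlapped from each to the next.

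Igha was ordered differently. Its levels were 599.5, 449, 954, and 861 TPM in the spleen and 434, 404, 43.0, and 1991 TPM in the small intestine. The 2 organs overlapped, and the small intestine held both the highest value, in KO2, and the lowest, in KO1. The kidney had 1.58, 2.91, 10.9, and 34.1 TPM, the liver 1.88, 2.85, 2.77, and 3.89 TPM, and the heart 0.46, 0.73, 0.11, and 0.58 TPM. Kidney and liver overlapped, and the heart lay below both. Jchain showed the same placing of spleen and small intestine, with 1201, 1170.3, 1410.2, and 2412 TPM in the spleen and 660.3, 1824, 162, and 1629 TPM in the small intestine. It reached 4.56, 5.99, 11.9, and 19.2 TPM in the kidney, 4.29, 3.78, 2.96, and 4.32 TPM in the liver, and 0.38, 5.69, 0.18, and 2.75 TPM in the heart.

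**Figure D1:**
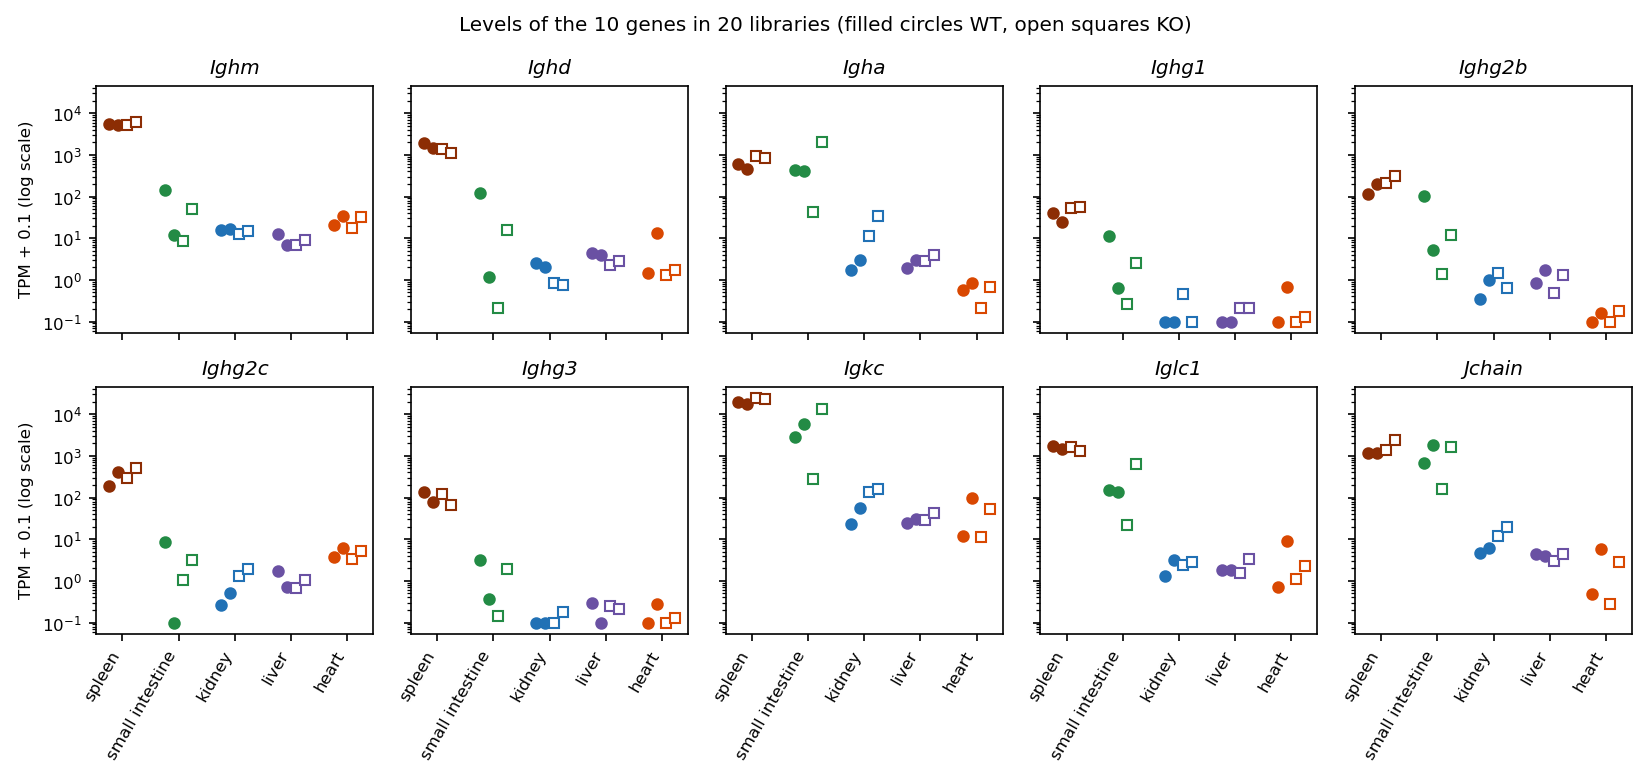
Levels of the 10 genes as TPM + 0.1 on a log axis, 1 panel for each gene, with 1 point for each of the 20 libraries by organ (filled circles WT, open squares KO). Ighm lies at 5088 TPM or more in the 4 spleen libraries and at 145 TPM or less in the other organs, whereas Igha and Jchain reach the range of the spleen in libraries of the small intestine.

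The IgG genes were much lower than Ighm in the spleen. Ighg2c had 185, 410.7, 288, and 524 TPM there, Ighg2b 115.9, 198, 214, and 317 TPM, Ighg3 136, 79.3, 123, and 67.9 TPM, and Ighg1 39.5, 23.8, 52.3, and 56.7 TPM. Ighg1 therefore lay below the other IgG genes in each spleen library. Ighg2c lay above Ighg2b in each of them in TPM, but not in counts, since its exon length is shorter. Ighg2b had 4061, 5173, 6960, and 9818 counts and Ighg2c 3215, 5315, 4640, and 8028. In the kidney and the liver, Ighg1 and Ighg3 had at most 9 counts in a library, and counts of 0 allowed up to 0.125 TPM for Ighg1 in kidney WT1. Igkc was the most abundant member in the spleen, at 19368, 17835, 24282, and 23160.1 TPM, and in the small intestine, at 2921, 6002, 282, and 13480.3 TPM. Iglc1 had 1715, 1477, 1660.6, and 1282 TPM in the spleen and 150.05, 134, 22.4, and 631 TPM in the small intestine.

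The organs were tested in 1 fit of all 20 libraries with the quasi-likelihood test of edgeR, taking both genotypes of an organ equally. A call needed a fold change over 2 and a p under 0.1 after Benjamini-Hochberg adjustment over all genes tested. All 4 comparisons share the spleen libraries. Of the 10 members, 7 were lower in the small intestine than in the spleen, against 25.4% of all genes tested, with a median log2 fold change of -3.11 over the members and -0.10 over all genes. Ighm had a log2 fold change of -6.30 (its standard error was 0.73 and its adjusted p = 8.1e-06). Ighd stood at -5.50 (standard error 1.27), Ighg2c at -6.33, Ighg3 at -5.74, Ighg1 at -3.34, Ighg2b at -2.88, and Iglc1 at -2.17, and all of these were called. The 3 members not called were Igha at 0.58 (standard error 0.78, adjusted p = 0.564), Jchain at 0.18 (standard error 0.78, adjusted p = 0.887), and Igkc at -1.23 (standard error 0.88, adjusted p = 0.261). Without a filter on low counts Igkc was called too, at -1.25 (adjusted p = 0.00132). With the library number as a block, Igkc was also called, at -1.79, and Jchain turned to -0.29. The values turned on single libraries of the small intestine: without KO1, Igha was called higher at 1.07 (adjusted p = 0.0608), and without KO2 it was called lower at -1.90 (adjusted p = 0.00569), as was Igkc at -3.74 (adjusted p = 0.00217).

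In the kidney, liver, and heart all 10 members were lower than in the spleen, against 24.1%, 29.7%, and 27.5% of all genes tested, and the highest adjusted p of a member was 0.000473, for Ighd in the liver. Ighg1 and Ighg3 in the kidney and liver, and Ighg2b and Ighg3 in the heart, had at most 9 counts in a library there, and Ighg1 in the heart had 0, 19, 0, and 1. Iglc1 had 10, 10, 9, and 26 counts in the liver and 2, 52, 3, and 14 in the heart. These genes were tested in the organs named because of their level in the spleen. They had to differ, so their calls are not a result. Ighm stood at log2 fold changes of -8.09 in the kidney, -8.10 in the liver, and -7.17 in the heart. Igha stood at -6.12, -6.68, and -9.94, and Jchain at -6.93, -7.38, and -8.98 in the same organs. These values take both genotypes of an organ together, and both WT kidneys had less Igha than both KO kidneys. In the heart Ighg2c was the member closest to its spleen level, at -5.67 (standard error 0.90).

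Class use was described by the share of each class in the 7 heavy chain genes, with counts divided by exon length. These lengths add up all forms of a gene, so shares of different classes carry the same limit as TPM. In the spleen Ighm made up 65.0%, 66.4%, 62.9%, and 68.4% of heavy chain RNA, Ighd 22.5%, 18.8%, 16.9%, and 11.8%, Igha 6.94%, 5.72%, 11.8%, and 9.37%, and the 4 IgG genes 5.52%, 9.06%, 8.38%, and 10.5%. The small intestine had Igha at 52.6%, 95.5%, 79.4%, and 96.0%. WT1 was the lowest of these, and there Ighm made up 17.6%, Ighd 14.5%, and IgG 15.3%. In the heart Ighm made up 79.2%, 61.8%, 78.7%, and 80.9%, and in the liver 59.6%, 42.7%, 51.5%, and 50.6%. In the kidney the share of Ighm was 78.1% and 73.3% in WT and 46.4% and 28.7% in KO.

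**Figure D2:**
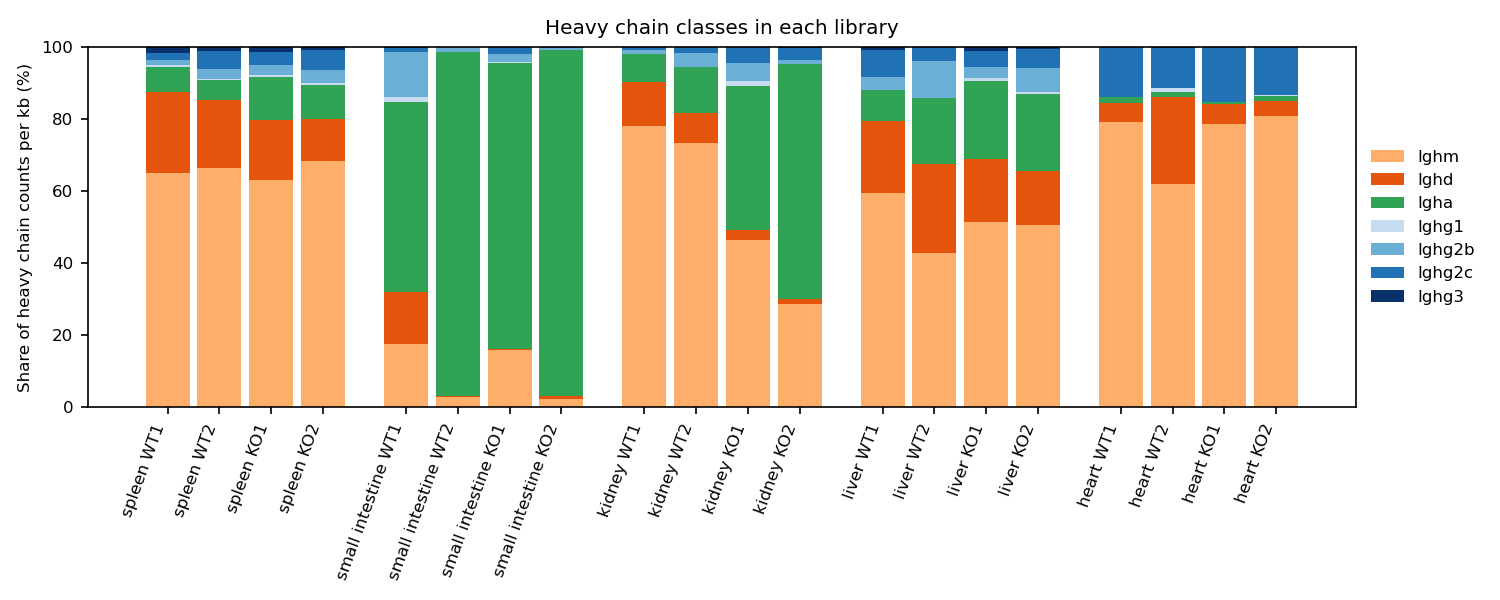
Share of each heavy chain class in percent, as stacked bars for the 20 libraries grouped by organ, with counts divided by exon length before the shares were taken. Ighm fills most of each spleen and heart bar, Igha fills from 52.6% to 96.0% of the small intestine bars, and the kidney bars differ most between libraries.

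Shares were compared between organs with two-sided exact permutation tests over 4 libraries against 4, which cannot give a p below 0.0286. The mean share of Igha in the small intestine was 80.9% ± 20.3 (SD, n = 4). It was higher than in the spleen (8.46% ± 2.70), the liver (17.5% ± 6.0), and the heart (1.28% ± 0.534) in every library, with an exact p = 0.0286 each. Against the kidney (31.4% ± 26.7) the libraries overlapped, with an exact p = 0.0571. The mean share of Ighm in the spleen, 65.7% ± 2.28, was above that of the small intestine (9.68% ± 8.19) and the liver (51.1% ± 6.90) in every library, again with an exact p = 0.0286. It overlapped the kidney (56.6% ± 23.3, exact p = 0.514) and the heart (75.2% ± 8.94, exact p = 0.143). With the light chains below, 6 of 12 comparisons had no overlap, and after Benjamini-Hochberg adjustment over the 12 these exact tests had an adjusted p = 0.0571, so none passed 0.05.

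Ighd set single libraries apart in the small intestine and the heart. It had 2792 counts in WT1 of the small intestine and 23, 2, and 302 counts in WT2, KO1, and KO2. In the heart it took 24.3% of heavy chain RNA in WT2 and 5.22%, 5.50%, and 4.12% in WT1, KO1, and KO2. The same libraries stood apart in B cell markers. The sum of 10 B cell genes was 401 TPM in small intestine WT1 against 14.9, 3.06, and 68.6 TPM in WT2, KO1, and KO2, and 49.4 TPM in heart WT2 against 13.2, 12.7, and 17.5 TPM in WT1, KO1, and KO2. Heart WT2 also had a T cell sum of 17.8 TPM against 5.79, 2.81, and 3.45 TPM in WT1, KO1, and KO2. Small intestine WT1 did not stand apart in the T cell sum, with 134.7 TPM against 149.7, 17.4, and 118 TPM in WT2, KO1, and KO2. A list of 10 genes of germinal centres and Peyer's patches summed to 33.3 TPM in heart WT2 against 8.87, 8.23, and 14.9 TPM, and to 216 TPM in small intestine WT1 against 62.4, 243, and 87.7 TPM, with Cxcl13 the most abundant gene in both libraries. The part of these cells in the shares was not tested.

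The heart carried a single IgG subclass for the most part. Ighg2c had 35, 104, 29, and 96 counts there, whereas Ighg1, Ighg2b, and Ighg3 together gave 12 values of which 6 were 0 and the highest was 19, for Ighg1 in WT2. Ighg2c was 100%, 88.2%, 100%, and 97.4% of the IgG genes in the heart, and from 11.1% to 15.2% of all heavy chain RNA. In the raw counts, 35 of 35 IgG counts of WT1 were Ighg2c, with a 95% Wilson interval from 90.1% to 100%. In WT2, 104 of 131 IgG counts were Ighg2c. In the small intestine the leading IgG gene was Ighg2b, at 82.1%, 86.4%, 52.1%, and 60.9% of the IgG genes, and Ighg2c was at 0 counts in WT2. Intervals cover counting error only, and they are too narrow even for that, since even counts were more frequent than odd ones and the counts are thus not independent molecules.

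Kappa was the main light chain in each organ. Igkc made up 79.1%, 81.5%, 84.3%, and 85.7% of light chain constant RNA in the spleen, where Iglc2 had 2270.3, 1731, 1873, and 1774 TPM and Iglc3 1117.9, 830.2, 978, and 824 TPM. Igkc made up 89.7%, 96.1%, 84.5%, and 93.9% in the small intestine, and in the kidney 90.8%, 89.3%, 96.0%, and 96.7%. The mean in the kidney, 93.2% ± 3.71 (SD, n = 4), was above the spleen mean of 82.7% ± 2.91 in every library (exact permutation p = 0.0286, adjusted p = 0.0571), whereas the small intestine overlapped the spleen (exact p = 0.0571, adjusted p = 0.0857). The spleen minus the kidney was -10.5 points and the spleen minus the small intestine -8.37 points, and with Iglc1 as the only lambda gene these became -3.56 and -2.13 points. The lambda genes are harder to separate, since the coding sequences of Iglc2 and Iglc3 were 96.2% identical, against 73.4% for Iglc1 and Iglc2. Per exon length, light chain exceeded heavy chain RNA in all 20 libraries but heart WT1 and KO1. These had the fewest total counts of all, 17959542 and 15897446, against 36090637 and 41763236 in heart WT2 and KO2. The ratio of light to heavy chain was 0.516, 2.15, 0.629, and 1.53 in the heart, and 1.25 in kidney WT1. It was 2.83, 2.78, 3.56, and 2.94 in the spleen, and the small intestine had 3.95, 14.8, 6.17, and 6.92.

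J chain RNA was set against the classes it joins, as the TPM of Jchain divided by that of Igha and Ighm together. The ratio was 0.193, 0.207, 0.233, and 0.338 in the spleen, whereas it was 1.14, 4.38, 3.15, and 0.798 in the small intestine, so every library of the small intestine lay above every library of the spleen. The kidney, at 0.258, 0.301, 0.505, and 0.391, and the liver, at 0.295, 0.398, 0.316, and 0.331, lay below the small intestine and overlapped the spleen and each other. In the heart the ratio was 0.0179, 0.164, 0.0105, and 0.0860, below the spleen in each library. The sum of the B cell markers was 6062, 5028, 4622, and 3576 TPM in the spleen, and all 10 of these genes were lower in the small intestine than in the spleen (median log2 fold change -5.29). The part of B cells in the ratio was not tested.

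**Figure D3:**
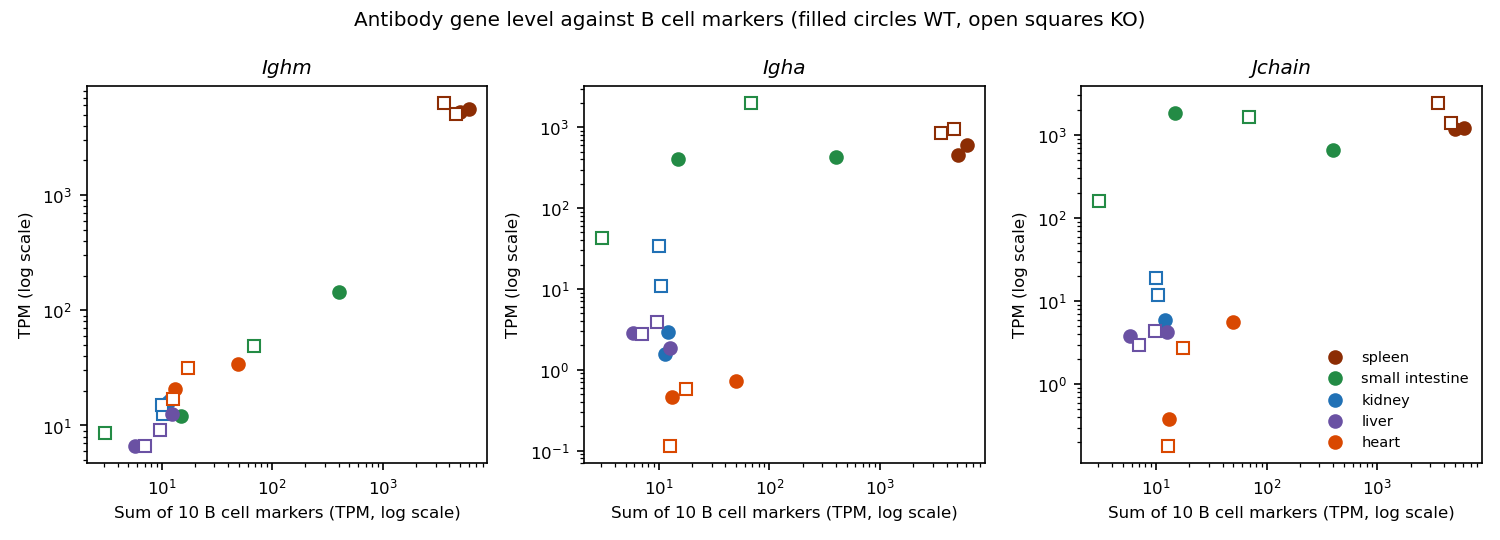
Levels of Ighm, Igha, and Jchain in TPM against the summed TPM of the 10 B cell marker genes, both on log axes, with 1 point for each of the 20 libraries coloured by organ (filled circles WT, open squares KO). In Igha and Jchain the small intestine libraries lie above all kidney, liver, and heart libraries, at B cell sums from 3.06 to 401 TPM, whereas their Ighm levels overlap those of the heart.

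Across the 20 libraries, the log2 CPM of Jchain was most like that of Igha and Igkc among the members, with Pearson's r of 0.975 and 0.967, and Ighm was most like Ighg3 and Ighd, with 0.955 and 0.946. The r of Ighm with Igha was 0.621. These values describe 5 organs with 4 libraries each, and libraries of 1 organ share its tissue. Outside the immunoglobulin genes, the 5 genes of 22938 most like Jchain were Apol7c (0.969), Elf1 (0.962), Gpr55 (0.962), Cd8a (0.957), and Trdc (0.957). Those most like Igha were Heatr9 (0.957), Ifi30 (0.95), Ankfy1 (0.947), Apol7c (0.943), and C430042M11Rik (0.939). Those most like Ighm were Vrk1 (0.988), Cd2 (0.985), Tspan32 (0.983), Swap70 (0.982), and Ripor2 (0.980). The median r over the genes compared was 0.0239 for Jchain, 0.0277 for Igha, and -0.0310 for Ighm. Without the spleen, the r of Vrk1 with Ighm was 0.866 and that of Apol7c with Jchain 0.968. Without the small intestine as well, these were 0.693 and 0.797, and the lowest were 0.274 for Tspan32 with Ighm, 0.453 for Trdc with Jchain, and 0.663 for Apol7c with Igha.

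In the spleen, no member passed the test between KO and WT, and 8 of 10 had a log2 fold change above 0. Of all genes tested in the spleen, 0.223% were called by the same test within the organ, and 51.3% had a value above 0. The median log2 fold change was 0.55 over the members and 0.01 over all genes. Both KO libraries lay above both WT libraries for Ighm, Igha, Ighg1, Ighg2b, Igkc, and Jchain, which is 6 of 10 members against 17% of all genes. Both lay below for Ighd, against 14.4% of all genes.

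Igha had 579, 461.6, 1044.8, and 966 CPM in the spleen in the order WT1, WT2, KO1, KO2. Both KO libraries were above both WT libraries, and the log2 difference was 0.95 (standard error 0.17, Benjamini-Hochberg adjusted p = 0.145 in edgeR). Jchain had 1094, 1134.5, 1457, and 2554 CPM, with the highest level in KO2 and a log2 difference of 0.85 (standard error 0.27, adjusted p = 0.617). Igkc had 3730.3, 3654, 5302, and 5182 CPM, with close values within each genotype and a log2 difference of 0.51 (standard error 0.15, adjusted p = 0.481). Of the IgG genes, Ighg1 had 37.1, 23.8, 55.7, and 61.8 CPM (log2 fold change 0.95, standard error 0.23, adjusted p = 0.308), and Ighg2b 112, 204, 235, and 358 CPM (log2 fold change 0.91, standard error 0.35, adjusted p = 0.956). Ighg2c, with 88.9, 209.8, 157, and 292 CPM, and Ighg3, with 124, 76.7, 126, and 71.8 CPM, overlapped between genotypes. Counted at an unadjusted p under 0.05, 5 members were higher and 0 lower in KO, against 4.32% and 0.828% of all genes.

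Ighm and Ighd had log2 differences smaller in size than that of Igkc. Ighm had 3835, 3787, 3939, and 4983 CPM (log2 fold change 0.23, standard error 0.17), and in TPM its genotypes overlapped. Ighd had 1340.1, 1083, 1064, and 864 CPM, the lowest in KO2, at a log2 difference of -0.33 (standard error 0.18). The share of Igha in heavy chain RNA was 6.94% and 5.72% in WT and 11.8% and 9.37% in KO, and that of Ighd 22.5% and 18.8% in WT and 16.9% and 11.8% in KO. With 2 libraries against 2, an exact test of such shares cannot go below p = 0.333, so none was run. Iglc1 stood at a log2 fold change of 0.04 and Ighg3 at -0.02.

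The spleen values depended on single libraries and on the tool. With 1 library left out, the log2 fold change ran from 0.79 to 1.12 for Igha, from 0.66 to 1.30 for Ighg1, from 0.54 to 1.40 for Ighg2b, and from 0.39 to 1.16 for Jchain, which was lowest without KO2. Without WT1, Igha (adjusted p = 0.0594) and Ighg1 (adjusted p = 0.0497) were called at their highest values and Ighg2b had its lowest, in a fit that called 1.86% of all genes. Without WT2, the library with hepatocyte RNA, Ighg2b was called at its highest value (adjusted p = 0.0698) and Igha and Ighg1 had their lowest, in a fit that called 1.35% of all genes. In these fits 1 WT library remained, and the spread came from the KO pair alone. DESeq2 gave adjusted p-values of 0.000269 for Igha, 0.0259 for Ighg1, and 0.0718 for Jchain, at folds that did not reach 2. Thus 3 members passed at any fold, against 1.17% of DESeq2 genes in the direction of KO, and 0 at a fold over 2, against 0.697%. Over edgeR alternatives that kept all libraries, the lowest adjusted p was 0.000189 for Igha, 0.000208 for Ighg2b, 0.000451 for Ighg1, and 0.00325 for Jchain. No member reached a fold of 2 in these fits, and the genes called in all ran from 0 to 313. Other cell types moved with genotype in the same libraries. The red cell sum of 6 genes was 60923 and 81167 TPM in WT and 122651 and 143284 TPM in KO, and Alas2 and Slc4a1 of this list were called higher in KO. The fat sum was 30.2 and 18.3 TPM in WT and 64.8 and 61.4 TPM in KO, and all 5 of its genes had a log2 fold change above 0 (median 1.58), of which Fabp4 was called. None of the 10 B cell genes was called and 9 had a log2 fold change below 0 (median -0.19), with 2, Pax5 and Ebf1, at an unadjusted p under 0.05. Likewise, none of the 16 plasma cell genes was called and 12 were above 0 (median 0.13), with Ell2 at an unadjusted p under 0.05. Of the 9 genes tested from the germinal centre and Peyer's patch list, 6 were above 0 and 3 below (median 0.33). None of them was called, and 1 had an unadjusted p under 0.05. Smooth muscle RNA summed to 300 and 313 TPM in WT and 260 and 150 TPM in KO. All 6 smooth muscle genes had a log2 fold change below 0 (median -0.37), and none was called. The part of these cells in the antibody values was not tested.

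**Figure D4:**
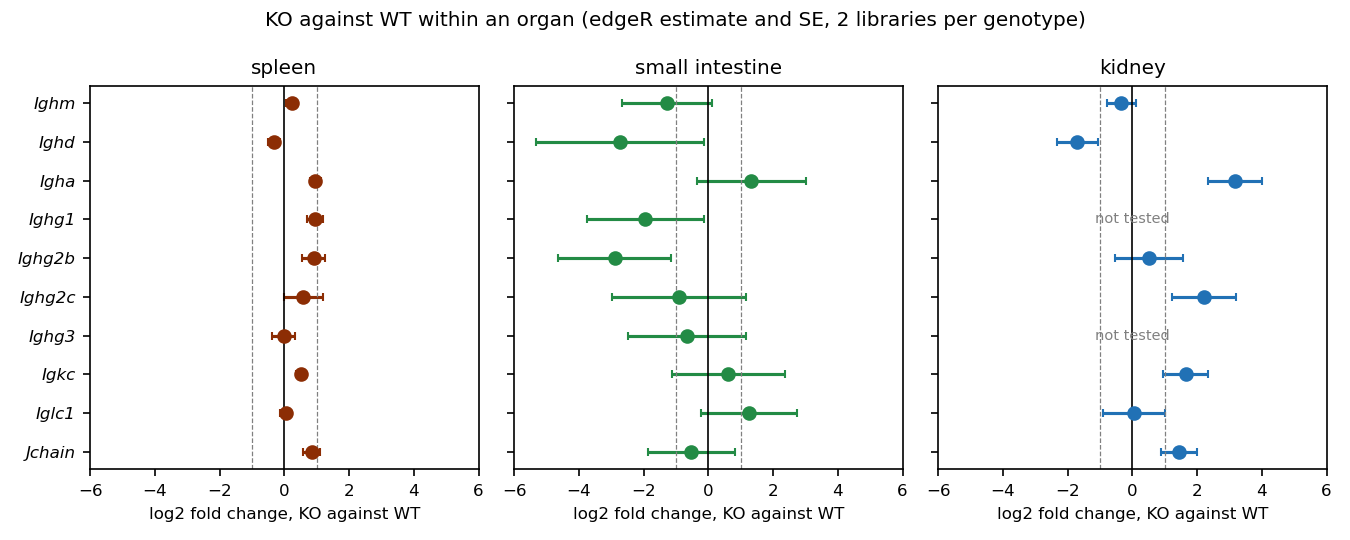
Log2 fold change of KO against WT for each member in the spleen, small intestine, and kidney, with points at the edgeR estimate, bars of 1 standard error, and dashed lines at a 2-fold difference. Bars are shortest in the spleen and longest in the small intestine, and Igha lies at 0.95 in the spleen and at 3.16 in the kidney, where Ighg1 and Ighg3 were not tested.

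The genotypes overlapped for all 10 members in the small intestine, where 13.6% of all genes had both KO libraries above both WT libraries and 11.6% had them below. No gene of the organ was called by edgeR, a share of 0%, and DESeq2 called 51 genes but 0 members. At an unadjusted p under 0.05 in edgeR, 0 members were counted in either direction, against 1.77% of all genes higher and 0.617% lower. DESeq2 counted 1 member at that threshold. Igha had 408, 486, 37.4, and 2212 CPM, so that the KO libraries held both the lowest and the highest value, and the log2 fold change was 1.33 (standard error 1.68, Benjamini-Hochberg adjusted p = 1.0 in edgeR). With 1 library left out this value ran from -3.61 to 2.31. Igkc had 548, 1440.3, 48.95, and 2986 CPM (log2 fold change 0.61, standard error 1.74). With the library number, which follows the stretch of the intestine, as a block, Igha stood at -0.62 and Igkc at -1.21, so the direction of neither is settled. Jchain had 586, 2071, 133, and 1707 CPM (log2 fold change -0.53, standard error 1.34). Over the alternatives that kept all libraries, the value of Jchain ran from -1.21 to -0.51. Ighm had 96.3, 10.3, 5.30, and 38.5 CPM (log2 fold change -1.28, standard error 1.38), and was highest in WT1, the library with the most B cell RNA. Standard errors of the members ran from 1.34 to 2.61, each larger than a log2 change of 1, which is a 2-fold difference.

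Within a stretch of the intestine, Igha differed in opposite directions. Between the distal libraries, Igha in KO1 was 0.0916 times WT1, and between the proximal libraries KO2 was 4.55 times WT2. Jchain was lower in KO in both, at 0.227 and 0.824 times WT. No test could be made within a stretch, with 1 library of each genotype. KO1 also had the lowest T cell sum, at 17.4 TPM against 134.7, 149.7, and 118 TPM in WT1, WT2, and KO2, and the lowest B cell sum. All 10 B cell genes (median -2.96) and all 7 T cell genes (median -1.19) had a log2 fold change below 0 in KO. Of the 16 plasma cell genes, 14 were below 0 and 2 above (median -0.43). No gene of these 3 lists was called. All 6 smooth muscle genes had a log2 fold change above 0 in KO (median 2.27) and an unadjusted p under 0.05, and none was called. The part of these cells was not tested. Igha held 79.4% of heavy chain RNA in KO1, the library with the least of it, and 96.0% in KO2, the library with the most.

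In the kidney, both KO libraries lay above both WT libraries in Igha, Igkc, and Jchain, and no member passed the test. Igha had 39, 85, 286, and 889 counts, which is 1.30, 3.95, 11.3, and 35.4 CPM. The KO values did not overlap those of WT, and the log2 fold change was 3.16 (standard error 0.84, Benjamini-Hochberg adjusted p = 1.0 in edgeR). Of all genes of the kidney, 0% were called. Igkc had 3.84, 15.5, 27.5, and 32.8 CPM (log2 fold change 1.64, standard error 0.70), and Jchain 3.54, 7.67, 11.6, and 18.8 CPM (log2 fold change 1.44, standard error 0.56). The order of the libraries was the same in these 3 genes. At an unadjusted p under 0.05, 2 members were higher, Igha and Jchain, against 0.405% of all genes, and 1 was lower, Ighd, against 0.234%. Ighg2c had 0.07, 0.28, 0.63, and 0.96 CPM, which rests on 2, 6, 16, and 24 counts.

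IgM and IgD of the kidney did not follow. Ighm had 9.36, 16.3, 9.23, and 11 CPM, overlapping between genotypes, at a log2 difference of -0.34 (standard error 0.45). Ighd had 1.47, 1.91, 0.55, and 0.48 CPM, both KO libraries below both WT libraries, at a log2 difference of -1.70 (standard error 0.63). In all, KO lay above WT for 4 of the 8 members tested, against 10.3% of all genes, and below for 1, against 11.2%. Of these 4, Ighg2c passed the filter on low counts through its KO libraries alone, so its place among them is not a result. Ighg1 and Ighg3 did not pass it. In the counts of heavy chain genes, Igha took 10.5% in WT1 (95% Wilson interval 7.79% to 14%, 39 of 371 counts), 16.7% in WT2 (13.7% to 20.2%, 85 of 508), 48.1% in KO1 (44.1% to 52.1%, 286 of 595), and 73.0% in KO2 (70.5% to 75.5%, 889 of 1217). These intervals are too narrow for the same reason as those of the heart, and the spread between kidneys is not part of them.

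The kidney values also turned on single libraries. With 1 library left out, the log2 fold change ran from 2.14 to 4.19 for Igha, from 0.96 to 3.0 for Igkc, and from 0.99 to 2.13 for Jchain. The lowest value of Igha came without KO2 (adjusted p = 1.0), and those of Igkc and Jchain without WT1. Without WT2, Igha (adjusted p = 0.0771), Igkc (adjusted p = 0.00588), and Jchain (adjusted p = 0.0373) were called at the highest of these values, in a fit that called 2.37% of all genes. Without WT1, Ighd was called at -1.88 (adjusted p = 0.0739), in a fit that called 16.1% of all genes. In both fits the spread came from the KO pair alone, and the lone WT library was assumed to vary like it. DESeq2 gave an adjusted p = 0.275 for Igha and called 0 members. The B cell sum of the kidney was 11.4, 12.1, 10.4, and 10.03 TPM, with Cd79b the most abundant gene in 3 libraries and Ebf1 in KO2, and all 9 of its genes tested had a log2 fold change below 0 (median -0.21). None of them was called or had an unadjusted p under 0.05. The plasma cell sum was 872, 742, 824, and 916 TPM, with most of it from Hsp90b1, a chaperone of all secretory cells. Of its 14 genes tested, 7 had a log2 fold change above 0 and 7 below (median 0.05), none was called, and Tnfrsf17 was at 0 in WT2 and KO2. Both KO kidneys lay above both WT kidneys in the T cell sum, at 11.6, 9.15, 14.9, and 14.5 TPM with Trac the most abundant gene, and below them in the fat sum, at 128, 143, 101, and 106 TPM with Fabp4 the most abundant. Of the 7 T cell genes, 4 had a log2 fold change above 0 and 3 below, and all 4 fat genes tested were below 0. None of these genes was called. The part of these cells in the kidney values was not tested.

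Whether the KO effect differed between organs was tested as an interaction in the fit of 20 libraries. No member was called by edgeR, the lowest adjusted p was 1.0 in each of the 3 pairs of organs, and 0% of all genes were called. At an unadjusted p under 0.05, 0 members were counted for the kidney against the spleen, against 1.74% of all genes, 1 for the small intestine against the spleen, against 4.81%, and 0 for the kidney against the small intestine, against 4.12%. DESeq2 also called 0 members, against 0%, 0.284%, and 0.172% of all genes in the same pairs. At an unadjusted p under 0.05, DESeq2 counted 0, 1, and 2 members in these pairs. For Igha the difference between the kidney and spleen effects was 2.27 on the log2 scale (standard error 1.59), so the larger value in the kidney is not shown to differ from that in the spleen.

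Other genes of antibody production were read from lists of receptors and transport, class switching, and switch signals. Between KO and WT, edgeR called none of the 12 receptor and transport genes, none of the 15 class switching and hypermutation genes, and none of the 15 switch signal genes tested in the spleen, with median log2 fold changes of -0.09, 0.21, and -0.08. At an unadjusted p under 0.05, 1 of these genes was higher, Nsd2 of the class switching list, and 0 were lower. None was called in the small intestine or the kidney either, with 0 at an unadjusted p under 0.05. In the spleen Tnfrsf13b, the receptor TACI that binds the plasma cell factors BAFF and APRIL, had 182, 109, 127, and 111 TPM, and Tnfrsf13c, the BAFF receptor, 179, 153, 134, and 124 TPM. Fcer2a, the low affinity IgE receptor of B cells, had 269.6, 179.9, 197, and 174 TPM. Tnfrsf17, the plasma cell receptor BCMA, had 8.63, 7.17, 9.10, and 14.9 TPM, highest in KO2 as Jchain was.

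Between organs, 1 of the 12 receptor and transport genes was higher and 9 were lower in the small intestine than in the spleen, against 24.1% and 25.4% of all genes. The higher one was Pigr, the polymeric immunoglobulin receptor that carries IgA joined by the J chain, with 1999.8, 3006, 1632, and 3194 TPM in the small intestine. Pigr differed less between these libraries than Igha did, and was lowest in KO1 and highest in KO2 as Igha was. Of the 15 class switching genes 1, Lig4, was higher and 9 were lower, and of the 15 signal genes tested 4 were higher and 6 lower. Aldh1a1, an enzyme that makes the retinoic acid known to favour IgA switching, was the most abundant of the signal genes in the small intestine, with 147, 154, 250.3, and 171 TPM. It also led this list in each library of the liver and heart and in 2 of the 4 of the kidney, and was higher in the liver, at 761, 486, 451, and 517 TPM. Of the other constant genes, Ighe, the gene of IgE, had 5, 11, 6, and 17 counts in the spleen and 0 in the kidney, liver, and heart libraries.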

How the data were processed

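RNA of 20 libraries from 5 organs was sequenced. Per the labels and the methods, the authors trimmed reads with cutadapt, mapped them with HISAT2 2.1.0 to mm10 (the methods print GRCh38), counted them on exons of Ensembl genes with featureCounts 2.0.1, and deposited raw counts per gene with no normalization, together with gene lengths, positions, and symbols as other columns. The command stored with the deposited counts lacks the strand and read pair options that the methods name. From 54.9% to 59.8% of counts between 10 and 50 were even numbers in each library, so that counts are not independent molecules.

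From the counts, TPM, class shares, and TMM-normalized CPM were computed. Genotypes were compared within an organ, and organs in 1 fit of 20 libraries, with edgeR 4.0.16 (filterByExpr, robust quasi-likelihood, Benjamini-Hochberg adjustment over all genes tested). A standard error is the size of the log2 fold change over the square root of F. Apart from the fits without each single library, no fit dropped a library, and none was imputed. Alternatives were DESeq2 1.42.0, no filter, at least 10 counts, an adjusted p under 0.05, the 20-library fit, other size factors, scaling without immunoglobulin genes, the replicate number as a block, shares of raw counts or of fewer genes, and fits without each single library.

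The totals put the limit that 3 counts set for a gene at 0 between 0.0674 and 0.189 CPM.

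All members are reported. From the other lists, the 4 most abundant genes of an organ could be named. Genes most like Jchain, Igha, and Ighm were the 5 with the highest r in log2 CPM with a prior count of 2. Tnfrsf17, Pigr, Lig4, Nsd2, Pax5, Ebf1, Ell2, Fabp4, Alas2, Slc4a1, and the leading genes of marker sums were chosen after their values were seen. The members and lists were chosen with earlier results of these data known. Genotype tests of the liver and heart, and the bisulfite and other experiments, were not used here.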

Additional observations from a re-analysis of the deposited data

Results flagged for a closer look

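Class shares were searched for libraries that stand apart from the other 3 of their organ by Dixon's test, in 25 sets of 4 libraries, and 3 did. Chance gives about 1 in 20 sets, but the sets are not independent, since the heavy chain shares of a library add up to the whole. The 3 concern Ighd and Ighm, and the high Ighd and low Ighm share of heart WT2 are not separate results. The share of Ighd in heavy chain RNA was 14.5% in small intestine WT1 and at most 0.738% in the other libraries of that organ. In heart WT2 the share of Ighd was 24.3% and that of Ighm 61.8%, whereas the other heart libraries had 4.12% to 5.50% of Ighd and 78.7% to 80.9% of Ighm. The B cell marker sum was 401 TPM in small intestine WT1 and 49.4 TPM in heart WT2, the highest value of each organ. The part of B cells in these shares was not tested.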

How the results depend on the processing

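In the kidney, liver, and heart, the calls of all 10 members against the spleen held under each alternative run (DESeq2, other size factors, scaling without immunoglobulin genes, no filter, the libraries of both organs alone, the replicate block, and each library left out). This is no support for the IgG genes and Iglc1 where they entered these tests through the spleen. Between KO and WT, no alternative other than leaving out a library called a member. With 1 library left out, the members called ran from 0 to 2 in the spleen and from 0 to 3 in the kidney. Genes called in the spleen, 42 in all, became 0 at an adjusted p under 0.05 or in the fit of 20 libraries, 209 with DESeq2, 313 without a filter, 105 with at least 10 counts, and 0 to 371 with 1 library left out. In the kidney 1 to 2938 genes were called with 1 library left out, against 0 with all. DESeq2 called 51 genes in the small intestine, and 104 and 63 for the KO effect in the small intestine against the spleen and in the kidney against the small intestine, where edgeR called 0. Its value of Iglc1 for the KO effect in the kidney against the spleen was -0.0078, against 0.10. The cause of these shifts was not tested.

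With 1 library left out, log2 fold changes of KO against WT ran from -0.52 to 0.37 for Ighg3 and from -0.18 to 0.20 for Iglc1 in the spleen. In the small intestine they ran from -3.36 to 1.09 for Ighm, -9.15 to 2.75 for Ighd, -3.61 to 2.31 for Igha, -5.28 to 1.14 for Ighg1, -5.60 to 0.17 for Ighg2b, -2.30 to 7.83 for Ighg2c, -5.36 to 1.63 for Ighg3, -4.38 to 1.59 for Igkc, -2.99 to 2.22 for Iglc1, and -3.36 to 0.65 for Jchain. In the kidney they ran from -0.69 to 0.14 for Ighm, -0.32 to 2.30 for Ighg2b, and -0.67 to 1.39 for Iglc1. For the small intestine against the spleen, Igha ran from -1.90 to 1.07 and Jchain from -1.24 to 0.63. Shares of Ighm in the spleen minus the kidney ran from -0.26 to 16.2 points, and those of Igkc in the spleen minus the heart from -3.42 to 0.14 points.

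With the replicate number as a block, the log2 fold changes in the small intestine became -0.62 for Igha, 0.42 for Ighg2c, -1.21 for Igkc, and -0.29 for Iglc1, and Jchain against the spleen became -0.29. Igkc was then called lower than in the spleen, at -1.79 (adjusted p = 0.0622), as it was without a filter, at -1.25 (adjusted p = 0.00132). The block changed no other call. Deviations of libraries with the same number correlated at 0.570 in the small intestine, 0.365 in the heart, 0.126 in the kidney, 0.038 in the liver, and 0.007 in the spleen, with 2 pairs in each organ.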
